A study of Mus musculus with 6 samples.

Results

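The genes described here drive DNA replication and mitosis. The list held 60 genes named by symbol, 34 of the G1/S step, 23 of the G2/M step and 3 inhibitors of cyclin-dependent kinases (CDKs), out of 17145 genes tested in the series. Each gene was read from the probe set that carries its symbol and no other, and where several probe sets did, from the one with the highest mean over the 6 arrays. Of the 60 genes, 59 had such a probe set, and all of these passed the filter on low intensity. Ccnb1, the cyclin B1 gene, had none in the annotation used and was not analysed. The series compared 3 cultures of NIH/3T3 cells, a mouse fibroblast line, that stably expressed HA-tagged wild type RPB1 with 3 that stably expressed HA-tagged 8KR RPB1. RPB1 is the largest subunit of RNA polymerase II, and in 8KR each lysine at position 7 of the repeats in its C-terminal domain was replaced by arginine, which cannot be acetylated. The medium of every culture held bovine calf serum (10%) and α-amanitin (2 µg/ml), a toxin that blocks polymerase II. The labels call the samples biological replicates without saying whether they share a clone or a transfection, so the p-values measure only the spread between these samples.

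A cell that commits to division passes from G1 into S phase once D and E cyclins, with their CDKs, phosphorylate the retinoblastoma protein and release E2F transcription factors. E2F then switches on genes for licensing of replication origins, for the replication fork and for deoxynucleotide supply. Genes of the G2/M step come later, held down in resting cells by the DREAM complex and raised by B-MYB and FOXM1, and encode cyclin B with CDK1, the spindle checkpoint, the kinetochore and mitotic motors. On bulk arrays a smaller share of cells in a phase and less RNA per cell cannot be told apart, and no measure of cell number or phase was analysed here.

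Values are log2 intensities, and a difference is 8KR minus wild type on that scale. Median intensities of the 6 arrays lay between 4.49 and 4.54. Pairs of arrays correlated at 0.982 to 0.984 inside a group, and at 0.975 to 0.978 across the groups. Polr2a, the gene of RPB1, read 12.10, 12.11 and 12.09 in wild type and 12.12, 12.13 and 12.13 in 8KR cells. Probes for mouse Polr2a cannot tell the construct from the cells' own copy, so this level does not check the labels. Of 12 fibroblast markers 11 lay above the median array intensity in wild type cells, all but Fap, and Col3a1 (log2 difference -0.52) and Sparc (-0.52) were lower in 8KR cells, whose part in the results here was not tested. Above that median in wild type cells were also 2 of 6 epithelial, 2 of 5 leukocyte, 2 of 4 skeletal muscle, 0 of 5 endothelial and 0 of 4 neuronal markers, none of them above 8. The epithelial gene Epcam (3.14 in wild type and 2.96 in 8KR), the endothelial gene Pecam1 (3.74 in each) and the leukocyte gene Ptprc (2.88 and 2.92) lay below it in both groups.

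Of the cell cycle genes, a few changed in 8KR cells. At an adjusted p under 0.05 from limma, 4 of the 59 genes rose (Cdc6, Mcm3, Mcm6 and Mcm7), 3 fell (Cdk6, Ccnb2 and Cenpa) and 52 did not pass. Of the 4 that rose, Mcm3, Mcm6 and Mcm7 encode subunits of the replicative helicase, and Cdc6 encodes a factor that loads it at origins. The changes were modest, from 1.30-fold for Mcm7 to 1.83-fold for Ccnb2. Among all 17145 tested genes 5.39% were called, 2.33% higher and 3.06% lower, compared with 11.9% of these 59 genes, 6.78% higher and 5.08% lower. That contrast depended on the filter, since dim genes were seldom called. With a filter at a group mean above 5.0, 17.6% of all tested genes were called. Calls there were 5 of 33 G1/S genes, 3 of 22 G2/M genes and 1 of 2 CDK inhibitor genes. The 59 genes were chosen with earlier results of these data known. These 7 calls sat near the threshold. Fits that left out 1 array called 1.59% to 1.71% of all tested genes, and in each of them no more than 1 of the 7 still passed. That was Cdk6 without 8KR replicate 1 (adjusted p = 0.0367 from limma) and Ccnb2 without wild type replicate 3 (adjusted p = 0.0265 from limma), whereas Cdc6, Mcm3, Mcm6, Mcm7 and Cenpa passed in none of the 6 fits. The direction of the 7 differences was the same in each of these fits. An ordinary test per probe set also ended the calls of Mcm3, Cdk6 and Ccnb2.

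**Figure D1:**
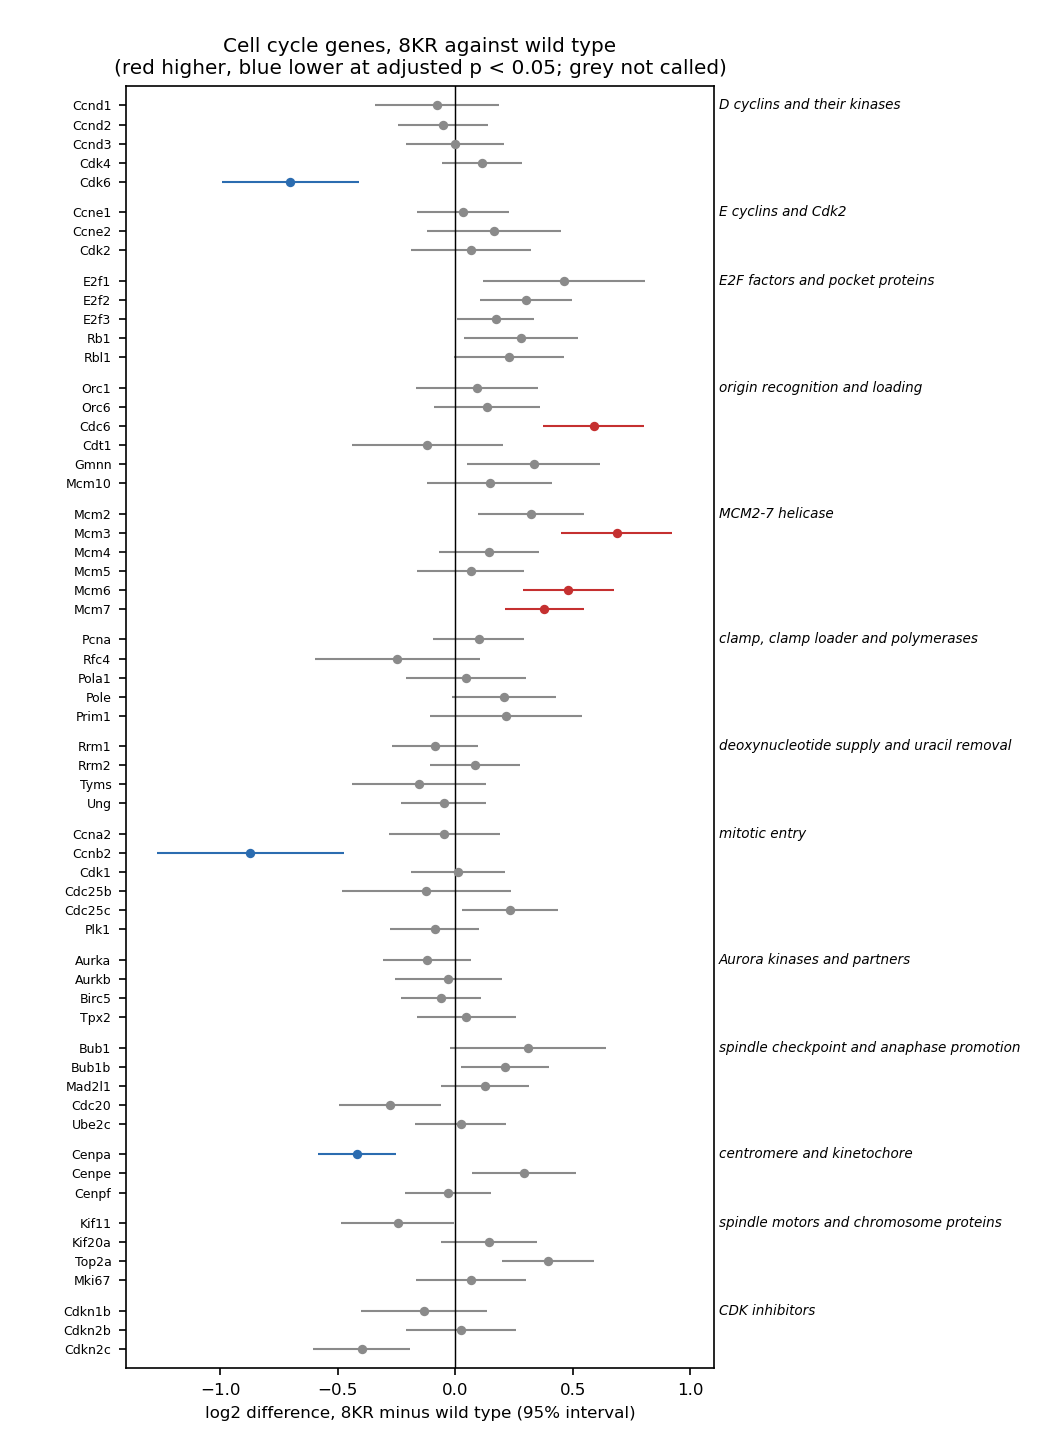
Log2 difference (8KR minus wild type, horizontal axis) of the 59 cell cycle genes measured, arranged by role, with the 95% confidence interval of each from limma (not adjusted for the number of genes). Points in red (Cdc6, Mcm3, Mcm6 and Mcm7) were higher and points in blue (Cdk6, Ccnb2 and Cenpa) lower at an adjusted p under 0.05, and the other 52 are grey.

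Promoter sequences of the called genes are shown because G1/S and G2/M genes are known to differ in the sites that control them. RefSeq start sites (build GRCm38.p6) gave a promoter window, 250 bases before to 50 after the start, for 48 of the 60 genes, and 5 of these had 2 windows. An E2F site, searched as TTTCCCGC or TTTGGCGC on both strands, occurred in 10 of the 31 windows of G1/S genes (32.3%), in none of the 18 windows of G2/M genes and in 1.56% of all 32851 windows. A cell cycle homology region, an element through which DREAM acts, was searched as TTTGAA or TTCGAA on both strands. It occurred in 14 of the 18 G2/M windows (77.8%), in 4 of the 31 G1/S windows (12.9%) and in 19.2% of all windows. A CCAAT box, searched as CCAAT on both strands, occurred in 16 of the 18 G2/M windows (88.9%), in 19 of the 31 G1/S windows (61.3%) and in 37.4% of all windows. No motif contains another, although neighbouring matches can share a base at their ends, and a match is a description of the sequence, not of binding. The stretches below begin 175 bases before the start site and end just before it, except that those of Ccnb2 and Cenpa go on by 12 and 22 bases to include the homology region there. Capitals mark the motifs, with GCGGGAAA and ATTGG standing for TTTCCCGC and CCAAT on the other strand. For Mcm7, which has 2 start sites, the stretch before the upstream one is given.
Cdc6 (chr11:98907976-98908150, plus strand): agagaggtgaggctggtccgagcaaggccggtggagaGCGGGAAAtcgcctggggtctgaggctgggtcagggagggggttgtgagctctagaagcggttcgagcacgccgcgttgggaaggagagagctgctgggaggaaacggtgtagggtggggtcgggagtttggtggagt
Mcm6 (chr1:128359706-128359880, minus strand): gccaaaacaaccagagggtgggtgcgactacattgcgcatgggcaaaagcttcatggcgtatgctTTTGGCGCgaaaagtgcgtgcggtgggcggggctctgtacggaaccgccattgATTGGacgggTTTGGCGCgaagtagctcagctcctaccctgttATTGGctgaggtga
Mcm7 (chr5:138171884-138172058, minus strand): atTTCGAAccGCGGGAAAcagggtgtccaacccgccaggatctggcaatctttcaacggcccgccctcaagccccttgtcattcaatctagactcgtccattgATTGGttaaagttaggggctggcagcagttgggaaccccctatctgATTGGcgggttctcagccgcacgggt
Ccnb2 (chr9:70421543-70421729, minus strand): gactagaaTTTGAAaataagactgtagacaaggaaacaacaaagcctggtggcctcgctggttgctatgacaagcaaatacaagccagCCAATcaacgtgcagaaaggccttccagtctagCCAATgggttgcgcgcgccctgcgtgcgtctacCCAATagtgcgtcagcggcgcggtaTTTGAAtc
Cenpa (chr5:30666711-30666907, plus strand): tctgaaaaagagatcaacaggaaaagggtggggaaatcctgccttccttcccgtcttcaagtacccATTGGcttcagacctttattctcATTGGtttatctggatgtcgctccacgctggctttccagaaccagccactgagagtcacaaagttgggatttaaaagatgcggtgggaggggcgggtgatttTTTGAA
Each of the 4 genes that rose had an E2F site in a window. Of the 27 G1/S genes with a window, 10 had such a site, and the others of these 10 were not called. The site of Cdc6 began 138 bases before the start, those of Mcm6 110 and 47 bases before it, and that of Mcm7 165 bases before its upstream start. That window of Mcm7 also held a homology region, 173 bases before the start. The window of its other start held a CCAAT box but no E2F site. Mcm3 had its 2 sites after the start and is not printed. Ccnb2 and Cenpa each had a homology region just after the start, at bases 5 and 17, with 3 and 2 CCAAT boxes upstream. The window of Cdk6 held none of these letters, which says nothing about the factors themselves.

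**Figure D2:**
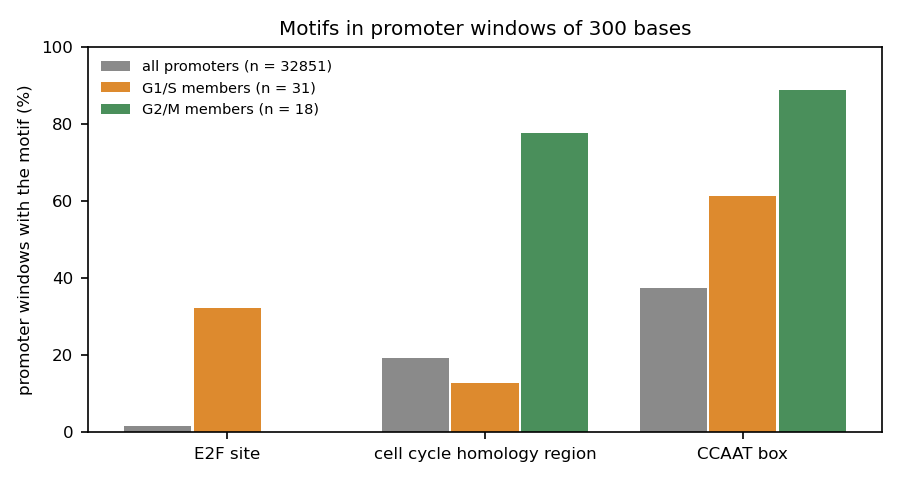
Share of promoter windows (vertical axis, percent) that hold an E2F site, a cell cycle homology region or a CCAAT box, for all 32851 windows (grey), the 31 windows of G1/S genes (orange) and the 18 windows of G2/M genes (green). E2F sites occur in 32.3% of G1/S and 0% of G2/M windows, and homology regions in 12.9% and 77.8%.

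Of the 6 genes for the replicative helicase, 3 rose in 8KR cells (50%), beside 2.33% of all tested genes. Mcm2 to Mcm7 encode the 6 subunits of the ring that unwinds DNA at the fork, and all 6 had a positive difference, with a median of 0.35, against a median of 0.01 over all tested genes. Mcm3 read 7.56, 7.51 and 7.28 in wild type and 8.11, 8.09 and 8.20 in 8KR cells. It rose 1.61-fold, from 7.45 ± 0.14 to 8.14 ± 0.05 (SD, n = 3 each; log2 difference 0.69 ± 0.10 SE, adjusted p = 0.0209 from limma). Mcm6 read 8.11, 8.09 and 8.00 in wild type and 8.46, 8.59 and 8.60 in 8KR cells, a rise of 1.39-fold (log2 difference 0.48 ± 0.08 SE, adjusted p = 0.0321 from limma). All 8KR arrays of these genes lay above all wild type arrays. Mcm7 read 8.18, 8.19 and 8.13 in wild type and 8.56, 8.50 and 8.57 in 8KR cells, a rise of 1.30-fold (log2 difference 0.38 ± 0.07 SE, adjusted p = 0.0412 from limma). The call of Mcm7 was lost with each array centred on its median and with no intensity filter, and the second of these also ended that of Ccnb2. The other 3 subunits did not pass. Mcm2 (log2 difference 0.32, standard error 0.09, unadjusted p = 0.0130 from limma) and Mcm4 (0.14, standard error 0.09) also had all 8KR arrays above all wild type arrays, whereas the arrays of Mcm5 (0.06, standard error 0.09) overlapped.

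Origin licensing showed a rise in 1 of 6 further genes (16.7%), beside 2.33% of all tested genes. Cdc6 encodes the ATPase that loads the helicase ring onto origins. It read 5.87, 5.90 and 5.69 in wild type and 6.34, 6.44 and 6.44 in 8KR cells, with no overlap. The rise was 1.50-fold, from 5.82 ± 0.11 to 6.41 ± 0.06 (SD, n = 3 each; log2 difference 0.59 ± 0.09 SE, adjusted p = 0.0242 from limma). Its partner in loading, Cdt1, had a log2 difference of -0.12 (95% interval -0.44 to 0.20), with overlapping arrays. Gmnn encodes geminin, the inhibitor of Cdt1. It read 4.58, 4.96 and 4.89 in wild type and 5.10, 5.15 and 5.18 in 8KR cells (log2 difference 0.33, unadjusted p = 0.0278 from limma) and did not pass. The origin recognition genes Orc1 (0.09) and Orc6 (0.13) and the firing factor gene Mcm10 (0.15) did not pass either. Orc6 read 8.55, 8.43 and 8.57 in wild type and 8.63, 8.78 and 8.55 in 8KR cells, with overlap.

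**Figure D3:**
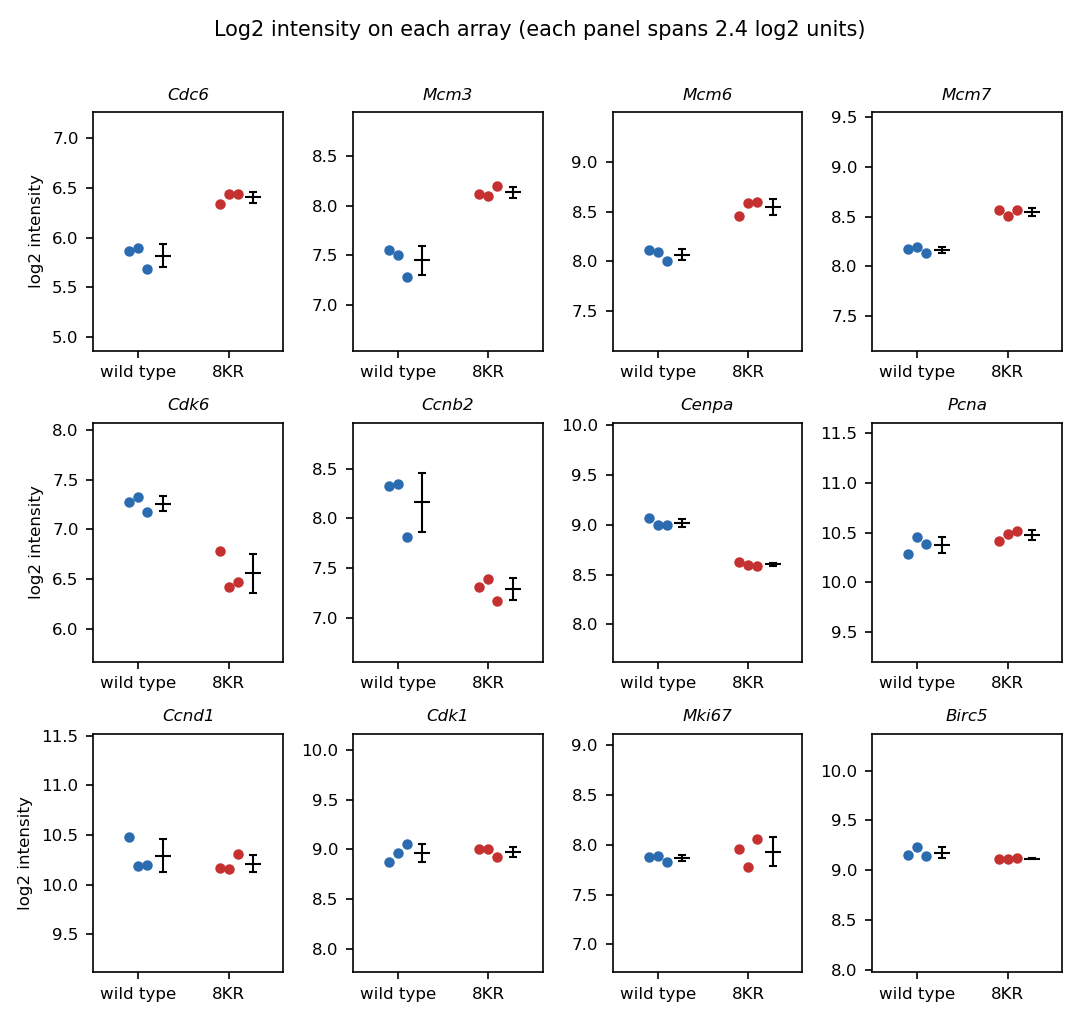
Log2 intensity (vertical axis, of the same span in every panel) of 12 cell cycle genes in wild type (3 arrays, blue) and 8KR cells (3 arrays, red), with the mean and SD of each group in black beside its points. The arrays of Cdc6, Mcm3, Mcm6, Mcm7, Cdk6, Ccnb2 and Cenpa do not overlap between groups, those of Pcna, Ccnd1, Cdk1 and Mki67 do, and those of Birc5 lie apart by less than 0.1.

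Among the D cyclins and their kinases, which carry growth factor signals to the retinoblastoma protein, only Cdk6 changed. That was 1 of 5 genes (20%), where 3.06% of all tested genes were called lower. Cdk6 read 7.27, 7.33 and 7.18 in wild type and 6.79, 6.42 and 6.47 in 8KR cells, and its 8KR arrays varied more (SD 0.20) than its wild type arrays (SD 0.08). It fell 1.63-fold, from 7.26 to 6.56 (log2 difference -0.70 ± 0.12 SE, adjusted p = 0.0342 from limma). Cdk4, which encodes the related kinase that also pairs with D cyclins, read 10.76, 10.79 and 10.86 in wild type and 10.93, 10.93 and 10.88 in 8KR cells. Its log2 difference of 0.11 (95% interval -0.06 to 0.29) did not pass. The D cyclin genes had differences close to 0, with 95% intervals of -0.34 to 0.19 for Ccnd1, -0.25 to 0.14 for Ccnd2 and -0.21 to 0.21 for Ccnd3. Of the next pair in the pathway, cyclin E and its kinase, Ccne1 read 8.32, 8.19 and 8.19 in wild type and 8.20, 8.34 and 8.25 in 8KR cells, with overlap. Ccne1 had a log2 difference of 0.03, Ccne2 of 0.17 and Cdk2 of 0.07, and none of these 3 passed (each had an unadjusted p above 0.05).

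The E2F factors and pocket proteins did not pass, although each had its 3 8KR arrays above its 3 wild type arrays. That held for 5 of 5 genes in this role, and for 15.0% of all tested genes. E2f1, a transcriptional activator of S phase genes, read 6.74, 6.78 and 6.81 in wild type and 7.13, 7.05 and 7.54 in 8KR cells (log2 difference 0.46 ± 0.14 SE, adjusted p = 0.143 from limma). Most of its spread came from 8KR replicate 3. E2f2 read 4.17, 4.15 and 4.13 in wild type and 4.56, 4.39 and 4.39 in 8KR cells (log2 difference 0.30, adjusted p = 0.105 from limma), below the median intensity of every array in wild type cells. E2f3 had a log2 difference of 0.17 and was called by an ordinary test per probe set, and its second probe set had one of 0.31 with overlapping arrays. The retinoblastoma gene Rb1, which restrains E2F, had a log2 difference of 0.28 and its relative Rbl1, which encodes p107, of 0.23. Over the 34 G1/S genes, 14 had all 8KR arrays above all wild type arrays (41.2%) and 2 had them below (5.88%), where 14.7% of all tested genes had them below. At an unadjusted p under 0.05, 10 of the 34 were higher and 1 was lower in 8KR cells, compared with 10.9% and 11.0% of all tested genes.

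None of the 9 listed genes of the replication fork and of deoxynucleotide supply passed in limma, and none had an unadjusted p under 0.05. Pcna, the sliding clamp of the polymerases, read 10.29, 10.45 and 10.39 in wild type and 10.42, 10.49 and 10.52 in 8KR cells, a log2 difference of 0.10 (95% interval -0.10 to 0.29). Its 2 probe sets gave almost the same value on every array and were not counted as separate readings. The polymerase genes Pola1 (log2 difference 0.04), Pole (0.21) and Prim1 (0.22), which encodes primase, and the clamp loader gene Rfc4 (-0.25) had standard errors of 0.09 to 0.14. Rrm1 and Rrm2 encode the subunits of ribonucleotide reductase, which makes deoxynucleotides. Rrm1 read 9.04, 9.07 and 9.17 in wild type and 9.03, 8.96 and 9.02 in 8KR cells. It had a log2 difference of -0.09 (95% interval -0.27 to 0.09) and Rrm2 of 0.09 (95% interval -0.11 to 0.28). Tyms, which makes thymidylate, had a difference of -0.15, and Ung, which removes uracil from DNA, of -0.05. The median difference over the 34 G1/S genes was 0.12. Of these 34 genes, 4 were called higher (11.8%) and 1 lower (2.94%), beside 2.33% and 3.06% of all tested genes.

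G2/M genes showed 2 falls (9.09%) and no rise among 22 measured, where 3.06% of all tested genes were lower and 2.33% higher. Their median difference was -0.01. Ccnb2, which encodes the mitotic cyclin B2, showed the largest difference of the 59 genes. It read 8.32, 8.35 and 7.81 in wild type and 7.31, 7.39 and 7.17 in 8KR cells. Wild type replicate 3 lay below the other wild type arrays, though above every 8KR array. Ccnb2 fell 1.83-fold, from 8.16 ± 0.30 to 7.29 ± 0.11 (SD, n = 3 each; log2 difference -0.87 ± 0.16 SE, adjusted p = 0.0437 from limma). Cdk1, the kinase that cyclin B activates, read 8.87, 8.97 and 9.05 in wild type and 9.00, 9.01 and 8.92 in 8KR cells, with a log2 difference of 0.01 (95% interval -0.19 to 0.21). Ccna2, the cyclin A2 gene, read 9.79, 9.73 and 9.61 in wild type and 9.76, 9.71 and 9.52 in 8KR cells, with overlap. Its log2 difference was -0.05 and that of the polo kinase gene Plk1 -0.09. The phosphatase genes that activate CDK1 did not pass, with Cdc25b at -0.12 and Cdc25c at 0.23 (unadjusted p = 0.0314 from limma).

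Of 3 centromere and kinetochore genes, Cenpa fell (33.3%, beside 3.06% of all tested genes). It encodes the histone H3 variant that marks centromeres, and its arrays agreed closely, with readings of 9.07, 9.00 and 9.00 in wild type and 8.62, 8.60 and 8.59 in 8KR cells. The groups did not overlap, and the fall was 1.34-fold (log2 difference -0.42 ± 0.07 SE, adjusted p = 0.0306 from limma). Cenpe, a kinetochore motor gene, had a log2 difference of 0.29 in the other direction (unadjusted p = 0.0178 from limma), and Cenpf of -0.03. In the spindle checkpoint, which delays anaphase until chromosomes are attached, Bub1 (0.31), Bub1b (0.21) and Mad2l1 (0.12) had 8KR arrays above all wild type arrays without passing. Cdc20 and Ube2c encode an activator and the ubiquitin-conjugating enzyme of the anaphase promoting complex, the target of that checkpoint. Cdc20 read 8.71, 8.78 and 8.78 in wild type and 8.47, 8.61 and 8.37 in 8KR cells (log2 difference -0.28, adjusted p = 0.158 from limma), with no overlap. Ube2c read 9.26, 9.08 and 9.18 in wild type and 9.19, 9.23 and 9.16 in 8KR cells (log2 difference 0.02).

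The proliferation markers did not pass. Mki67, the gene of the Ki-67 antigen, read 7.87, 7.89 and 7.83 in wild type and 7.96, 7.78 and 8.06 in 8KR cells (log2 difference 0.07, 95% interval -0.17 to 0.30). Its 8KR arrays lay on both sides of the wild type arrays. Birc5, which encodes survivin, read 9.15, 9.23 and 9.14 in wild type and 9.11, 9.11 and 9.12 in 8KR cells (log2 difference -0.06). The Aurora kinase genes Aurka and Aurkb had log2 differences of -0.12 and -0.03, and Tpx2, an activator of Aurora A, one of 0.05. Among the motors, Kif11 had a log2 difference of -0.24 (unadjusted p = 0.0463 from limma) and Kif20a of 0.14. Top2a, the topoisomerase that untangles sister chromosomes, read 8.67, 8.77 and 8.59 in wild type and 9.03, 9.06 and 9.12 in 8KR cells (log2 difference 0.39, adjusted p = 0.0552 from limma). A second Top2a probe set, dimmer on every array, differed in the other direction, with means of 6.06 in wild type and 5.55 in 8KR cells (log2 difference -0.51, adjusted p = 0.0884 from limma), so the direction of Top2a depended on the probe set, and the mean of both probe sets had a difference of -0.06. The first probe set was called with quantile normalization, a filter at a group mean above 5.0, an intensity trend and over single-symbol probe sets. Over the 22 G2/M genes, 6 had all 8KR arrays above (27.3%) and 5 below all wild type arrays (22.7%), beside 15.0% and 14.7% of all tested genes. At an unadjusted p under 0.05, 4 were higher, Top2a by its brighter probe set among them, and 4 lower in 8KR cells (18.2% each), beside 10.9% and 11.0% of all tested genes.

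The inhibitors of CDKs did not pass. Cdkn2c encodes p18, an inhibitor of the CDK4 and CDK6 kinases. It read 7.82, 7.74 and 7.65 in wild type and 7.39, 7.38 and 7.25 in 8KR cells, without overlap (log2 difference -0.40 ± 0.09 SE, adjusted p = 0.0617 from limma). It was called with a filter at a group mean above 5.0, with an intensity trend and over probe sets with a single symbol. Cdkn2b, the gene of p15, read 4.60, 4.81 and 4.82 in wild type and 4.74, 4.86 and 4.70 in 8KR cells (log2 difference 0.02). Cdkn1b, the gene of p27, read 8.15, 7.78 and 7.94 in wild type and 7.79, 7.89 and 7.80 in 8KR cells. It had a log2 difference of -0.13 (95% interval -0.40 to 0.14), and its second probe set one of 0.09.

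Other genes of the pathway were taken by role, with earlier results of these data known. Of 48 further replication genes measured, 2 rose, none fell and 46 did not pass. Pola2, a subunit of DNA polymerase α, read 6.91, 6.73 and 6.70 in wild type and 7.28, 7.39 and 7.21 in 8KR cells (log2 difference 0.51, adjusted p = 0.0410 from limma). Lig1, the ligase that joins Okazaki fragments, read 7.19, 7.06 and 7.15 in wild type and 7.65, 7.55 and 7.62 in 8KR cells (log2 difference 0.47, adjusted p = 0.0305 from limma). The list's median difference was 0.06 and its share of calls, 4.17%, was near that of all tested genes. The split depended on the setting, with 7 higher and 3 lower under a filter at a group mean above 5.0, where Orc5, Gins3 and Dnmt1 were lower. Of 67 further mitotic genes, 4 fell, none rose and 63 did not pass, with a median of 0.004. Those 4 were Cenpm (log2 difference -0.68), a centromere protein gene, Depdc1a (-0.66), Gtse1 (-0.63) and Spc24 (-0.57), a kinetochore gene. Their share, 5.97%, was again near that of all tested genes. Under that filter, and likewise with an intensity trend, 2 were higher (Cks2 and Pbk) and 5 lower. None of 29 regulators such as Foxm1 (0.17), Mybl2 (0.21), Myc (0.15) and the subunits of DREAM passed in limma, where 3 were higher at an unadjusted p under 0.05 (10.3%, beside 10.9% of all tested genes) and none was lower. An ordinary test per probe set called none either. Of 16 genes of the anaphase promoting complex and mitotic exit, Anapc13 fell by 0.94 on the log2 scale and the phosphatase gene Cdc14b rose by 0.70, while 14 did not pass. The share called, 12.5% of few genes, stood beside 5.39% of all tested genes. Without any 1 of the 6 arrays, there was no call among the replication genes and at most 2 among the mitotic genes.

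**Figure D4:**
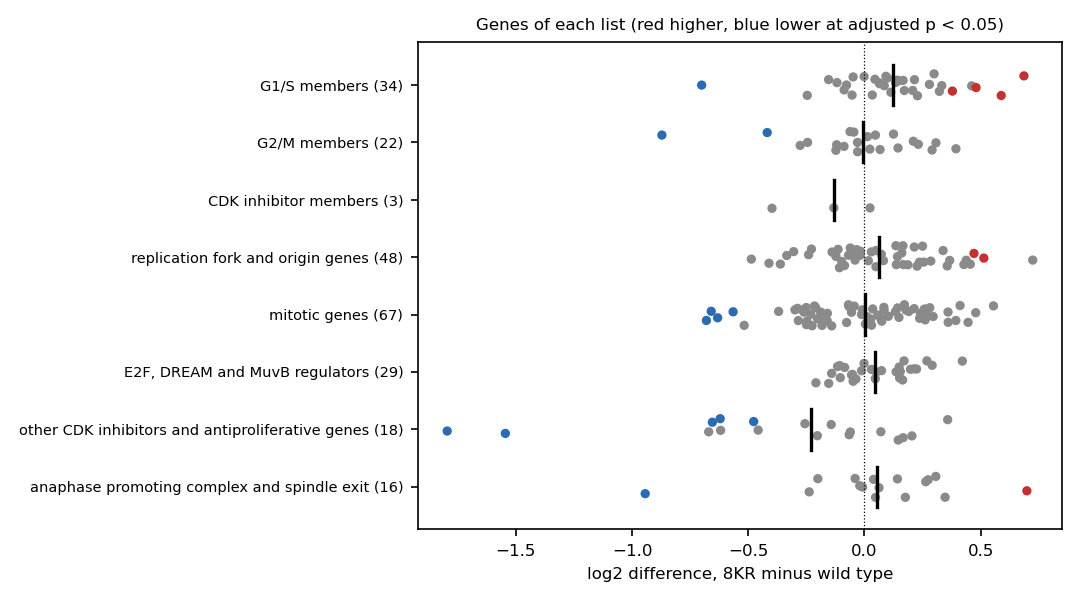
Log2 difference (8KR minus wild type, horizontal axis) of every measured gene in each list, with 1 point per gene, the number of genes in parentheses and the list's median as a black bar. Points in red were higher and points in blue lower at an adjusted p under 0.05. Medians lie at 0.12 for G1/S genes, -0.01 for G2/M genes and -0.23 for the list of other CDK inhibitors and antiproliferative genes. In that list Gas7 and Gas6, which need not be inhibitors of division, lie farthest to the left.

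The list of other CDK inhibitors and antiproliferative genes held larger differences, led by Gas7 and Gas6. Of its 18 measured genes, 5 fell, none rose and 13 did not pass, with a median of -0.23. The CDK inhibitor genes measured in it, Cdkn1c (log2 difference -0.07), Cdkn2a (0.07) and Cdkn2d (-0.14), were among those that did not pass. Another CDK inhibitor gene, Cdkn1a, and Trp53 and Btg3 were listed but had no tested probe set that carried their symbol alone. Gas7 and Gas6 are growth arrest-specific genes, named for their rise in fibroblasts that stop dividing, which does not make them inhibitors of division. The other Gas genes of the list, Gas1 (log2 difference 0.15), Gas2 (-0.62) and Gas2l3 (-0.20), did not pass. Gas7 read 7.79, 7.44 and 7.76 in wild type and 6.01, 5.72 and 5.88 in 8KR cells, a fall of 3.47-fold (log2 difference -1.80 ± 0.13 SE, adjusted p = 0.00315 from limma). Gas6, the gene of a ligand for receptor tyrosine kinases of the TAM family, read 6.62, 6.68 and 6.71 in wild type and 5.15, 4.85 and 5.38 in 8KR cells, a fall of 2.92-fold (log2 difference -1.55 ± 0.14 SE, adjusted p = 0.00612 from limma). These changes were far outside the spread of either group. Ccng1, a cyclin gene that p53 activates, fell by 0.65 on the log2 scale, Btg1, an antiproliferative factor gene, by 0.62 and Mdm2 by 0.48. Mdm2 encodes the ubiquitin ligase that restrains p53 and is itself no antiproliferative factor. Without it, a count added after the values were seen, 4 of 17 genes fell (23.5%). In each fit without 1 array this list had 2 or 3 calls. The share called, 27.8%, stood beside 5.39% of all tested genes. The list was chosen with earlier results of these data known, so that share is a description and no independent test. Since Gas7, Gas6 and Mdm2 are among the 5 calls, the share does not show that inhibitors of division fell.

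Some called members had called genes next to them. With 5.39% of all tested genes called, a set of 10 genes often holds a called one. Whether neighbours of members were called more often than other genes was not tested. Of the 5 tested genes on either side of Cenpa in the RefSeq order, 3 fell, Slc35f6 (log2 difference -0.85), Mapre3 (-0.64) and Ost4 (-0.39). Beside Ccnb2, 9 of 10 neighbours had a negative difference, and Bnip2 (-0.41) and Adam10 (-0.47) fell. Beside Mcm3, Tmem14a rose by 0.64 on the log2 scale, but only 5 of 10 neighbours had a positive difference. The median difference of the neighbours was -0.04 for Cenpa, -0.16 for Ccnb2 and 0.03 for Mcm3. No neighbour of Cdc6, Mcm6, Mcm7 or Cdk6 was called, of 10 each but 5 for Cdk6, which is the first tested gene of its chromosome, and the medians of these neighbours lay between -0.13 and 0.12. The part of the neighbourhood in the differences of Cenpa, Ccnb2 and Mcm3 was not tested.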

How the data were processed

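Gene expression was measured on Affymetrix Mouse Gene 1.0 ST arrays, 1 per sample. The authors normalized the values and deposited them as log2 intensities, 1 per probe set and array. Per the submitters' notes the tool was Affymetrix Power Tools 1.12.0. The sources used here give neither the normalization nor a build. Samples were grouped by genotype from their titles. After the study's methods, a probe set was kept if at least 1 group mean exceeded 3.0 (28543 of 35557). A linear model of 8KR minus wild type, with no covariates, was fitted to these in limma 3.58.1 (R 4.3.3), with Benjamini-Hochberg adjustment over the whole set. Symbols came from the platform annotation, updated through Entrez identifiers with RefSeq (GRCm38.p6). Named genes are the members called and the brightest member of each role, with their arrays, and up to 4 called genes of each wider list by adjusted p. Mdm2, Foxm1, Mybl2 and Myc, and the arrays of other members, were chosen after their values were seen. Members and lists were chosen with earlier results of these data known. The fit was tested on simulated data. The number of arrays limits the precision, since arrays give no read depth. Alternatives covered filters, scaling, the variance model, array weights, a replicate block, each array left out, the features tested, the threshold and the probe sets of a gene. Figures were drawn with matplotlib 3.10.9.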

Additional observations from a re-analysis of the deposited data

How the results depend on the processing

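Each count of calls was recomputed under 10 other settings, at a stricter threshold and without each of the 6 arrays in turn. Main counts were 5 for G1/S genes, 2 for G2/M genes, 0 for CDK inhibitors, 2 for further replication genes and 4 for further mitotic genes. They were 0 for the E2F and DREAM regulators, 5 for the antiproliferative list and 2 for the anaphase promoting complex list. Antiproliferative is here the name of a list, and not all of its genes inhibit division. Over all tested genes, 924 calls became 63 with the replicate number as a block and 274 to 293 without 1 array. With that block, counts were 0 in all lists but the antiproliferative one, which had 1. Deviations of same-numbered arrays from their group means had correlations of -0.0113, 0.00858 and -0.000483, and so showed no shared pattern. The labels do not say whether the numbers pair the samples. With an adjusted p under 0.01, counts were 0 except for 2 antiproliferative genes and 1 of the anaphase promoting complex. Without 1 array the range was 0 to 1 for G1/S and for G2/M genes, 0 for further replication genes, 0 to 2 for mitotic genes, 2 to 3 for antiproliferative genes and 1 for the anaphase promoting complex list. With no intensity filter the count was 1 for G2/M, further replication and anaphase promoting complex genes. With an ordinary test per probe set it was 1 for G2/M genes, 3 for antiproliferative genes and 1 for the anaphase promoting complex. With median centring it was 1 for further replication genes. Calls over all tested genes rose from 924 (5.39%) in some settings. They became 1737 of 9883 (17.6%) with a filter at a group mean above 5.0. With an intensity trend they became 1528 of 17145 (8.91%), and over single-symbol probe sets 1638 (9.55%). Whether larger counts in the lists there went beyond that rise was not tested. That filter gave 1 CDK inhibitor, 10 further replication genes (7 higher, 3 lower) and 7 mitotic genes (2 higher, 5 lower). In the same order, the intensity trend gave 1 of 3, 8 of 48 (7 higher, 1 lower) and 7 of 67 (2 higher, 5 lower). It also gave 5 of 16 genes of the anaphase promoting complex list. Single-symbol probe sets alone gave 1, 8 (6 higher, 2 lower) and 7 (2 higher, 5 lower) in lists of the same size. The causes of these changes were not tested, beyond the smaller number of arrays or features in some fits. Each of the 7 called members kept its direction in every setting and its call in 7 to 9 of the 10 others. Of the 52 not called, 12 changed sign in some setting.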

Other observations

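Some called genes of the wider lists also had called neighbours among up to 5 tested genes on each side. Of all tested genes 5.39% were called, and at that share a set of 10 genes often holds a called one. Of 10 neighbours each, Anapc13 had 2 called, and Cdc14b, Btg1, Gtse1 and Cenpm had 1. Whether neighbours were called more often than other genes was not tested. Anapc13, a subunit of the anaphase promoting complex, lay beside Cep63 and Slco2a1, which fell. Cdc14b lay beside Habp4, which rose, and all 10 of its neighbours had a positive difference. Btg1 lay beside the proteoglycan gene Dcn, Gtse1 beside Gramd4 and Cenpm beside Smdt1, all of which fell, whereas no neighbour of Gas6, Gas7, Ccng1, Mdm2, Pola2, Lig1, Spc24 or Depdc1a was called, of 10 each but 6 for Depdc1a near the end of its chromosome.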
